A study of Mus musculus with 22 samples.

Results

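The 8 genes described here are the mouse oocyte NLR genes *Nlrp4a*, *Nlrp4b*, *Nlrp4c*, *Nlrp4e*, *Nlrp9a*, *Nlrp9b*, *Nlrp9c* and *Nlrp14*. They were taken by their GENCODE symbols from a table of 52636 genes, of which 52403 have a symbol, and the rule by which they were taken uses the symbol and no measured value. RNA of fully grown oocytes at the germinal vesicle (GV) stage, taken from C57BL/6 females, was sequenced in 22 samples, and all 8 genes passed the filter on low counts in both sequencing runs. The single-end run (50-base reads) holds 3 samples of wild type, 4 of *Dicer* ΔMT/ΔMT, 3 of *Dicer* SOM/SOM and 1 of *Dicer* ΔMT/WT. The ΔMT allele lacks the retrotransposon-derived promoter that drives the oocyte form of Dicer. The SOM allele encodes HA-tagged full-length Dicer without introns 2 to 6, so that oocytes lack the truncated form that makes endogenous siRNAs, and the line was founded from a single embryonic stem cell clone. The paired-end run (75-base reads) combines the SOM allele with *Mili* DAH, a catalytically dead form of the piRNA protein MILI. Double mutants (4 samples, aged 40, 35, 11 and 11 weeks) are homozygous for both alleles, *Mili* DAH/DAH with *Dicer* SOM/SOM. RNAi mutants (2 samples, aged 17 and 13 weeks) are *Dicer* SOM/SOM with *Mili* DAH/WT, and the only piRNA mutant (aged 16 weeks) is *Dicer* SOM/WT with *Mili* DAH/DAH. The heterozygous controls (4 samples, aged 36, 38, 10 and 17 weeks) are *Dicer* SOM/WT with *Mili* DAH/WT. The controls of the paired-end run therefore carry a copy of each mutant allele, and no wild type was sequenced with them.

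NLR proteins of the NLRP group carry a pyrin domain, an ATP-binding NACHT domain and leucine-rich repeats. The best known of them sense infection or damage in immune cells and assemble inflammasomes, which activate caspase-1. A different subset is transcribed in growing oocytes, is stored as maternal mRNA or protein and has been multiplied by gene duplication in rodents. *Nlrp5* (MATER), the best studied of the oocyte subset, encodes a subunit of the subcortical maternal complex, and the 8 genes here are taken as duplicated oocyte genes outside that complex. *Nlrp14* is required for early embryonic development after maternal loss, and *Nlrp9b* is also known from intestinal epithelium, where its product senses viral double-stranded RNA.

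All 8 genes lie on chromosome 7 (GRCm38). *Nlrp4c* spans chr7:6045161-6105150, *Nlrp4b* chr7:10687789-10730168, *Nlrp9b* chr7:20008023-20073306, *Nlrp4e* chr7:23301192-23362277, *Nlrp4a* chr7:26435113-26476142, *Nlrp9a* chr7:26535023-26575615 and *Nlrp14* chr7:107166990-107198102, all on the plus strand. *Nlrp9c* spans chr7:26322473-26394243 on the minus strand. *Nlrp9c*, *Nlrp4a* and *Nlrp9a* form a cluster, with 40.9 kb and no annotated gene between the first pair and 58.9 kb with 1 gene between the second pair. *Nlrp4c*, *Nlrp4b*, *Nlrp9b* and *Nlrp4e* stand alone upstream of it, and *Nlrp14* lies far downstream. Exons of *Nlrp9b* overlap those of *Gm18877* by 136 bases on the same strand, but *Gm18877* stayed between 0.0573 and 0.342 CPM (counts scaled to library size after TMM normalization) in all samples.

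The coding sequences of the genes can be set side by side where the NACHT domain binds ATP. The lines below give 60 bases of coding exon around the Walker A motif, the nucleotide-binding loop, read 5′ to 3′ on the coding strand from the GENCODE transcripts (GRCm38). Capitals mark the codons of the motif, which was found once in each translated coding sequence. Each stretch was located by this motif, so its presence in all lines is given by the search.
Nlrp4a chr7:26449411-26449470 (plus): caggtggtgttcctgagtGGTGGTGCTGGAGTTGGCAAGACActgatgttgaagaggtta
Nlrp4b chr7:10714298-10714357 (plus): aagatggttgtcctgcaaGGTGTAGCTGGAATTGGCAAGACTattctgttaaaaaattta
Nlrp4c chr7:6065543-6065602 (plus): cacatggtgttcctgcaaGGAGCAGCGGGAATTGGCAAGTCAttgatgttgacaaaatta
Nlrp4e chr7:23320531-23320590 (plus): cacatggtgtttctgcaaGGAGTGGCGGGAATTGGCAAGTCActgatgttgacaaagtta
Nlrp9a chr7:26557385-26557444 (plus): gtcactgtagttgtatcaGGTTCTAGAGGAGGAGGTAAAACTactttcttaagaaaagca
Nlrp9b chr7:20023266-20023325 (plus): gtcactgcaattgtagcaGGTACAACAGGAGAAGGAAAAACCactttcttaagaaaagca
Nlrp9c chr7:26385667-26385726 (minus): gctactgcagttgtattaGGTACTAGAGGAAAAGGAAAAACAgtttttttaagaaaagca
Nlrp14 chr7:107181838-107181897 (plus): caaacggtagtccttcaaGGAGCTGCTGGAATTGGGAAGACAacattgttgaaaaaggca

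Over the aligned coding sequence, *Nlrp4c* and *Nlrp4e* were 93.9% identical, and their longest identical run had 120 bases. *Nlrp4a* was 86.3% identical to *Nlrp4c* and 86.2% to *Nlrp4e*. *Nlrp4b* was the most distant of the *Nlrp4* genes, at 75.7% to *Nlrp4a*, 76.5% to *Nlrp4c* and 76.7% to *Nlrp4e*. Among the *Nlrp9* genes, identity was 87.8% between *Nlrp9a* and *Nlrp9c*, 84.2% between *Nlrp9a* and *Nlrp9b* and 83.2% between *Nlrp9b* and *Nlrp9c*.

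This kinship bears on the counts, because reads that mapped to several places were divided between them. *Nlrp4e* was the gene most exposed to this. Of its transcript stretches of 50 bases, the read length of the single-end run, 36.7% also occur in another annotated gene, and of its stretches of 75 bases, 20.1% do. Most of the shared sequence lies in 5 unnamed relatives, *Gm16443*, *Gm8486*, *Gm8685*, *Gm8728* and *Gm4541*, which hold between 26.2% and 30.8% of the 50-base stretches of *Nlrp4e*, while *Nlrp4c* holds 8.24%. For *Nlrp4c*, 10.7% of the 50-base and 3.08% of the 75-base stretches are shared, for *Nlrp9b* 7.79% and 4.25%, for *Nlrp9a* 6.07% and 1.98%, for *Nlrp4a* 2.63% and 0.310%, and for *Nlrp9c* 2.61% and 0.805%. *Nlrp4b* and *Nlrp14* share none at either length. Counts of *Nlrp4e* are therefore the most uncertain, followed by *Nlrp4c* at 50 bases and by *Nlrp9b* at 75 bases. *Nlrp4b* and *Nlrp14* have no exact match of read length in another annotated gene. Their counts were still not whole in 20 of 22 samples, so some of their reads were divided as well.

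**Figure D1:**
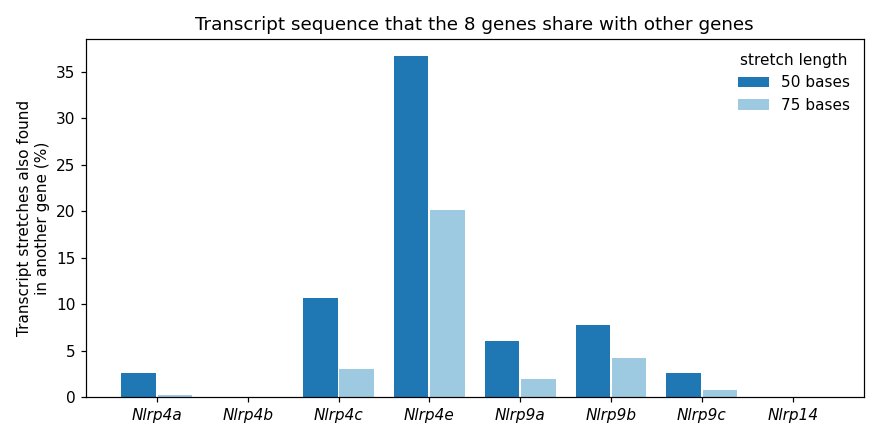
Share of all transcript stretches of 50 bases (dark bars) and 75 bases (light bars) of each gene, in percent, that also occur in a transcript of another annotated gene. *Nlrp4e* stands highest, at 36.7% and 20.1%, and *Nlrp4b* and *Nlrp14* are at 0.

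The 5 relatives of *Nlrp4e* were each listed at 8.34 to 18.5 CPM in the single-end run and at 2.90 to 6.85 CPM in the paired-end run. Their summed CPM came to between 30.2% and 51.4% of that of *Nlrp4e* in the samples with shorter reads and to between 6.97% and 13.2% in those with longer reads. Read length, instrument and genotype differ together between the runs and cannot be told apart here.

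RefSeq promoters (GRCm38.p6, 250 bases before to 50 bases after each start) were at hand for 7 of the 8 genes. *Nlrp14* had no entry. The lines below show 100 bases upstream of the start for 5 genes in which the letters CCAAT or their reverse complement, in capitals, stand close to the start.
Nlrp4a chr7:26435514-26435613 (plus): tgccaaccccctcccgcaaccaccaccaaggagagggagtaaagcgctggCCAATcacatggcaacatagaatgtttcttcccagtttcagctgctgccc
Nlrp4b chr7:10687693-10687792 (plus): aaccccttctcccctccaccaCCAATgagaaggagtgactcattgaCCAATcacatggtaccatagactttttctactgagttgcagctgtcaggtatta
Nlrp4c chr7:6045061-6045160 (plus): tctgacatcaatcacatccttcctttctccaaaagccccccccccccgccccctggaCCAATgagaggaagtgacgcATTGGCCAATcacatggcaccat
Nlrp9a chr7:26534923-26535022 (plus): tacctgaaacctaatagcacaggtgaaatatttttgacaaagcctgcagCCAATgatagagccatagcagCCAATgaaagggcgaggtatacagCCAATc
Nlrp9c chr7:26403701-26403800 (minus): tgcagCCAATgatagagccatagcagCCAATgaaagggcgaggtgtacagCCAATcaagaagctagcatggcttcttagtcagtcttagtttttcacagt

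CCAAT, searched on both strands of the whole window, occurred at a start of 6 of the 7 genes and of 41.1% of all 27025 genes in the RefSeq table (37.4% of its 32851 windows). *Nlrp9b* had no match in its window, and *Nlrp4e* had its match at position -229. *Nlrp4a* and *Nlrp4b* each have 2 RefSeq starts, and the other window of *Nlrp4a* holds 0 matches. The RefSeq start of *Nlrp9c* lies upstream of the gene span given above, whose upper end is at position 26394243, and does not adjoin it. The E-box letters CANNTG occurred for all 7 genes and for 75% of all genes. TAATTG, a core element of the oocyte factor NOBOX, occurred for 2 genes, *Nlrp9a* and *Nlrp9b*, and for 9.22% of all genes. The letters TATAAA occurred for *Nlrp9b* alone of the 7, and for 15.7% of all genes. These are matches of letters, and binding was not measured here.

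Before the genes themselves, the samples were checked against their labels. *Dicer1* was at 996 to 1048 CPM in wild type, 427 to 533 in *Dicer* ΔMT/ΔMT and 41.6 to 54.4 in *Dicer* SOM/SOM. In the paired-end run it was at 502 to 763 CPM in controls, 595 in the piRNA mutant, 53.8 and 62.1 in RNAi mutants and 53.1 to 60.8 in double mutants, so *Dicer1* was lowest wherever the label gave SOM/SOM. The 12 oocyte markers summed to 11189 to 14644 CPM, while 12 granulosa and cumulus markers summed to 84.0 to 156 CPM. Single-end samples held 6468380 to 90713013 counts and paired-end samples 22928936 to 43540806. *Dicer* SOM/SOM replicate 3 had the lowest total and also the highest level of the ribosomal RNA gene *Gm42418*, 18575 CPM before TMM scaling, against 4788 to 13030 in the other samples of its run. The value of 13030 was that of SOM/SOM replicate 1 and the value of 4788 that of replicate 2, while wild types were at 5079 to 5677. The paired-end libraries fell into a set with 4120 to 5515 CPM of *Gm42418* (older and younger replicate 1 of the double mutants, both RNAi mutants, older replicate 1 and replicate 3 of the controls) and a set with 299 to 567 CPM (the remaining double mutants and controls and the piRNA mutant). Double mutants and controls thus have 2 libraries in each set, whereas both RNAi mutants are in the set with more rRNA.

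The 8 genes differed widely in level. Levels are compared per length, as CPM per kilobase of exon, in the samples without a homozygous mutation. In wild type, *Nlrp14* was at 824 ± 106 CPM per kb (SD, n = 3) and ranked 28 of 23151 tested genes. *Nlrp9b* followed at 270.5 ± 14.8, *Nlrp9a* at 179 ± 14.1, *Nlrp4a* at 131.5 ± 1.49, *Nlrp9c* at 103 ± 6.88, *Nlrp4b* at 101 ± 4.45, *Nlrp4e* at 52.7 ± 3.70 and *Nlrp4c* at 9.55 ± 0.999. Of the neighbours in this order, only *Nlrp9c* and *Nlrp4b* overlapped in range. For all but *Nlrp4e* and *Nlrp4c*, at most 2.41% of the tested genes had a higher level per length, and *Nlrp4c* had 26% of the tested genes above it.

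The order was nearly the same in the controls of the paired-end run. *Nlrp14* was at 1097 ± 212 CPM per kb (SD, n = 4), rank 17 of 20989 tested genes, *Nlrp9b* at 294 ± 36.5, *Nlrp9a* at 192 ± 35.3, *Nlrp4a* at 163 ± 15.1, *Nlrp4b* at 128 ± 19.5, *Nlrp9c* at 105 ± 18.7, *Nlrp4e* at 73.4 ± 7.88 and *Nlrp4c* at 8.01 ± 0.780. Here the ranges of *Nlrp9a* and *Nlrp4a*, of *Nlrp4a* and *Nlrp4b* and of *Nlrp4b* and *Nlrp9c* overlapped, although the higher of each pair was higher in 4 of 4 samples. The 8 genes together took 0.414% to 0.631% of all counts in the single-end samples and 0.494% to 0.895% in the paired-end samples, and *Nlrp14* alone made up 41.9% to 52.4% and 47.0% to 55.9% of that share.

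**Figure D2:**
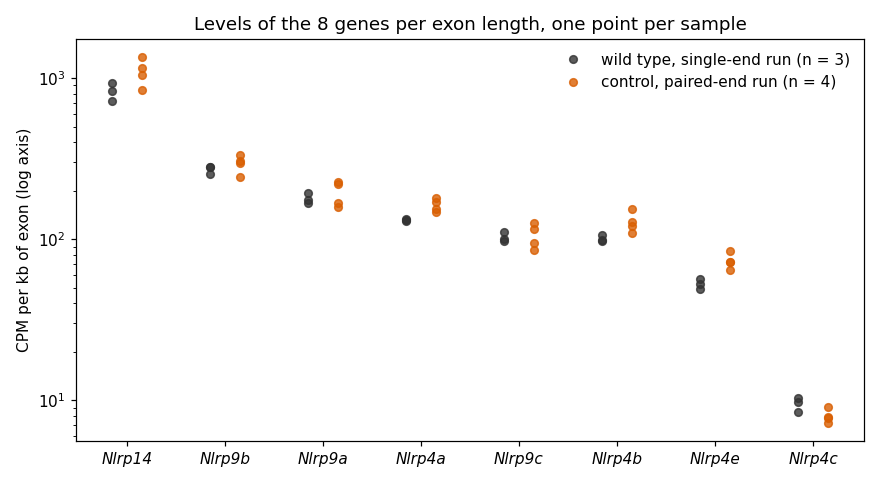
Level of each gene in CPM per kilobase of exon on a log axis, with a point for each wild-type sample of the single-end run (black, n = 3) and each control of the paired-end run (orange, n = 4). *Nlrp14* lies highest, between 716 and 1348, and *Nlrp4c* lowest, between 7.23 and 10.4.

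The comparison of *Dicer* ΔMT/ΔMT with wild type addresses what the loss of the main oocyte Dicer promoter does to these mRNAs. None of the 8 genes was called at an adjusted p under 0.05 (edgeR's quasi-likelihood test), where 15.4% of all 23151 tested genes were called. Of the 8, 2 had an unadjusted p under 0.05, as did 6828 of all tested genes. DESeq2 called 1 of the 8, *Nlrp4a*, and 19% of all genes it tested. The median log2 fold change of the 8 genes was -0.18, against 0.0079 over all tested genes, and every 95% interval lay within 1 log2 unit.

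*Nlrp4a* was at 617, 631 and 627 CPM in wild type and at 523, 523, 540.1 and 504 CPM in *Dicer* ΔMT/ΔMT. All 4 mutant samples were below all 3 wild types, a log2 fold change of -0.26 ± 0.09 (SE, adjusted p = 0.0707 by edgeR). *Nlrp4b* was at 325, 327 and 352 CPM in wild type and at 283, 269, 255 and 258 CPM in the mutant, again without overlap (log2 fold change -0.33 ± 0.14, adjusted p = 0.135 by edgeR). For both genes the exact two-sided permutation test over samples gave p = 0.0286, the smallest that 4 against 3 samples allow. These were the 2 of 8 genes that lay lower without overlap between the groups, as 16.7% of all tested genes did.

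*Nlrp14* was at 2933, 2533 and 3280 CPM in wild type and at 2637, 2400, 2128 and 2223 CPM in *Dicer* ΔMT/ΔMT, where 3 of 4 samples lay below the wild-type range (log2 fold change -0.31 ± 0.15, adjusted p = 0.188 by edgeR). The *Nlrp9* genes stood at 87.3% (*Nlrp9a*), 88.9% (*Nlrp9b*) and 94.7% (*Nlrp9c*) of the wild-type mean, all with overlapping ranges. *Nlrp4c* and *Nlrp4e*, the closest pair in sequence, were at 103% and 108%. With only the samples of both groups in the fit, 3 genes were called as lower, where 12.2% of all tested genes were, *Nlrp4a* (adjusted p = 0.00478), *Nlrp4b* (adjusted p = 0.0044) and *Nlrp14* (adjusted p = 0.0492), with log2 fold changes from -0.33 to -0.26. The heterozygous *Dicer* ΔMT/WT sample, which has no replicate, was below the wild-type range for 4 genes, above it for *Nlrp4e* and *Nlrp9b* and within it for 2, while 56.9% of all tested genes were outside.

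*Nlrp4a* and *Nlrp9c*, 2 of the 8 genes, were called as lower in *Dicer* SOM/SOM than in wild type. Both calls were lost in some of the other fits given below. Of all 23151 tested genes, 28.6% were called and 14.2% were called as lower. The median log2 fold change of the 8 genes was -0.32, against 0.0169 over all tested genes, and 7 of the 8 values were below 0. In bulk RNA, fewer transcripts per oocyte and a different mix of oocytes cannot be told apart. *Dicer* SOM/SOM also had lower summed levels of 6 B cell and leukocyte markers (72.2 to 97.6 CPM, against 115 to 128 in wild type), nearly all of it *Ighm* and *Ms4a1*, whereas *Cd79a*, *Cd79b* and *Ptprc* reached at most 0.44 CPM in any sample. Their part in the result was not tested. Neither was that of *Gm42418*, which was higher in SOM/SOM replicates 1 and 3 than in any wild type.

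*Nlrp4a* was at 502, 538 and 408 CPM in *Dicer* SOM/SOM, and all 3 samples lay below the wild types (log2 fold change -0.37 ± 0.10 (SE), adjusted p = 0.0149 by edgeR). Without the shallow replicate 3 the value was -0.26 with an adjusted p of 0.00903, and the call held with each other sample left out as well. It was lost with only both groups in the fit (adjusted p = 0.0618). *Nlrp9c* was at 368, 335 and 324 CPM in wild type and at 253, 289 and 251 CPM in *Dicer* SOM/SOM, also without overlap (log2 fold change -0.37 ± 0.11, adjusted p = 0.0229 by edgeR). This call was lost when wild-type replicate 1, wild-type replicate 2, mutant replicate 1 or mutant replicate 3 was left out, with adjusted p of 0.0847, 0.0538, 0.0654 and 0.0504, while the log2 fold change stayed between -0.32 and -0.38 in those fits.

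*Nlrp4b* and *Nlrp9a* did not overlap with wild type either. *Nlrp4b* was at 281, 298 and 182 CPM (log2 fold change -0.39 ± 0.15, adjusted p = 0.0743 by edgeR) and *Nlrp9a* at 473, 571 and 489.5 CPM against 675, 607 and 580 in wild type (log2 fold change -0.27 ± 0.12, adjusted p = 0.101 by edgeR). Without mutant replicate 2, both were called, at adjusted p of 0.0322 and 0.0492, and DESeq2 called *Nlrp4b* with all samples in (adjusted p = 0.0373). In all, 4 of the 8 genes lay lower without overlap, where 21.4% of all tested genes did, and 3 against 3 samples allow no exact permutation p under 0.1.

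*Nlrp14* was at 2473, 2615 and 1656 CPM, *Nlrp9b* at 947, 908 and 689 CPM and *Nlrp4e* at 158, 181 and 147 CPM in *Dicer* SOM/SOM. For all 3 genes replicate 3 was the lowest sample and at least 1 replicate lay within the wild-type range (adjusted p = 0.110, 0.392 and 0.331 by edgeR). *Nlrp4c* was the exception in direction, at 46.5, 50.1 and 31.4 CPM against 40.7, 33.1 and 38.6 in wild type, with mutant replicates 1 and 2 above and replicate 3 below all wild types (log2 fold change 0.21 ± 0.15, adjusted p = 0.335 by edgeR). Without replicate 3 it was called as higher, with a log2 fold change of 0.37 and an adjusted p of 0.0267. The relatives of *Nlrp4e* followed the same sample pattern, at 15.3 to 18.5 CPM in mutant replicates 1 and 2, 8.34 to 9.49 in replicate 3 and 11.5 to 14 in wild type.

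**Figure D3:**
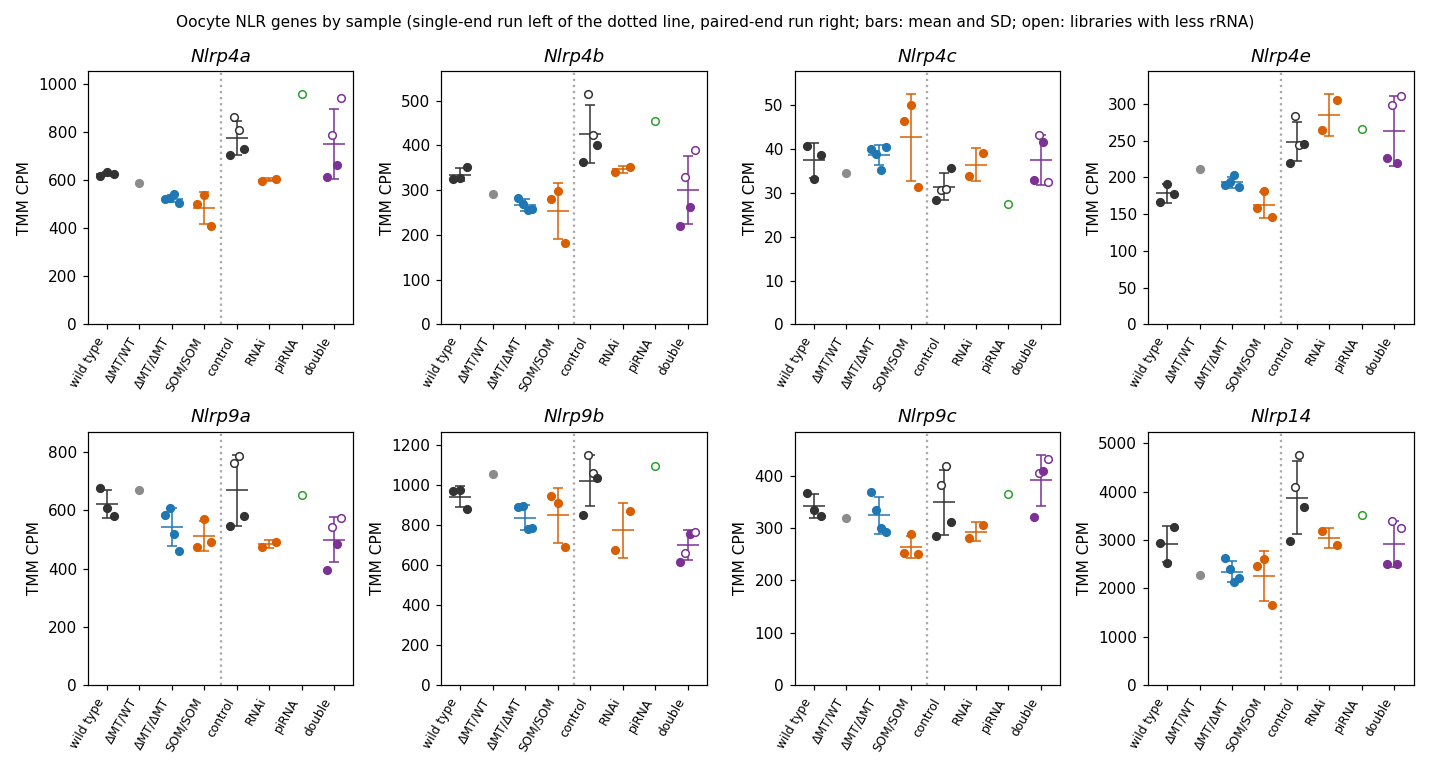
TMM-normalized CPM of each gene, in a panel of its own, with a point per sample, bars for mean and SD where a group has at least 2 samples, and open points for paired-end libraries with less rRNA. In *Dicer* ΔMT/ΔMT and SOM/SOM, *Nlrp4a* lies below all wild types, and in double mutants *Nlrp9b* (616 to 766) lies below all controls (848 to 1152).

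Between both *Dicer* mutants, none of the 8 genes differed at an adjusted p under 0.05, where 7.35% of all 23151 tested genes did. An unadjusted p under 0.05 was found for 2 of the 8 and for 5390 of all tested genes. DESeq2 called none of the 8. The values that lay furthest below 0 were those of *Nlrp9c* (log2 fold change of SOM/SOM over ΔMT/ΔMT -0.29 ± 0.10, adjusted p = 0.105 by edgeR) and *Nlrp4e* (-0.24 ± 0.09, adjusted p = 0.122 by edgeR). These were also the 2 genes that lay lower without overlap, as 11.4% of all tested genes did. *Nlrp4e* was at 189, 194, 203 and 186 CPM in *Dicer* ΔMT/ΔMT, above all SOM/SOM samples, and was called without SOM/SOM replicate 2 (adjusted p = 0.0457). For *Nlrp4a*, a call in SOM/SOM against wild type and none in ΔMT/ΔMT against wild type thus does not show a difference between the alleles. The 95% interval of that difference ran from -0.30 to 0.09, so its absence was not shown either.

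The second run repeats the loss of the oocyte Dicer form on the *Mili* DAH/WT background. In RNAi mutants against heterozygous controls, none of the 8 genes was called, where 10.7% of all 20989 tested genes were. An unadjusted p under 0.05 was found for 3 of the 8 and for 4951 of all tested genes. DESeq2 called none of the 8. The median log2 fold change was -0.32, against -0.0229 over all tested genes, and 6 values were below 0 and 2 above.

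*Nlrp4a* was at 706 and 861 CPM in the older controls, at 807 and 728 CPM in the younger controls and at 598 and 605 CPM in the RNAi mutants, which lay below all controls (log2 fold change -0.37 ± 0.17, adjusted p = 0.203 by edgeR). *Nlrp9a* was at 547, 761, 785 and 579 CPM in controls and at 475 and 492.6 CPM in RNAi mutants, also without overlap (log2 fold change -0.47 ± 0.18, adjusted p = 0.138 by edgeR). Together with *Nlrp4b*, at 342 and 352 CPM against 363 to 515 CPM, these were the 3 genes that lay lower without overlap, as 16.3% of all tested genes did. Both RNAi mutants are in the set with more rRNA, and against the 2 controls of that set the log2 fold change was -0.25 for *Nlrp4a* (adjusted p = 0.128), -0.21 for *Nlrp9a* (adjusted p = 0.272) and -0.02 for *Nlrp9c* (adjusted p = 0.947 by edgeR). *Nlrp4e* was at 265 and 305 CPM in RNAi mutants and at 219 to 284 CPM in controls (log2 fold change 0.20 ± 0.17, adjusted p = 0.539 by edgeR).

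*Dicer* SOM/SOM oocytes were thus measured in both runs, against different controls and with no shared sample. For SOM/SOM over wild type and RNAi mutant over control, the log2 fold changes were -0.37 and -0.37 for *Nlrp4a*, -0.39 and -0.29 for *Nlrp4b*, 0.21 and 0.22 for *Nlrp4c*, -0.13 and 0.20 for *Nlrp4e*, -0.27 and -0.47 for *Nlrp9a*, -0.15 and -0.40 for *Nlrp9b*, -0.37 and -0.25 for *Nlrp9c* and -0.37 and -0.35 for *Nlrp14*. The sign differed for *Nlrp4e* alone, the gene with the most shared sequence, and the difference between the runs was not tested. Against the 2 controls with as much rRNA as the RNAi mutants, the values of the second run were nearer to 0 for several genes, at -0.25 for *Nlrp4a*, -0.13 for *Nlrp4b*, -0.21 for *Nlrp9a*, -0.28 for *Nlrp9b*, -0.02 for *Nlrp9c* and -0.13 for *Nlrp14*, whereas *Nlrp4c* was at 0.20 and *Nlrp4e* at 0.30.

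*Nlrp9b* and *Nlrp4b*, 2 of the 8 genes, were called as lower in double mutants than in heterozygous controls. The call of *Nlrp4b* was lost in 6 of 8 fits with a sample left out. Of all 20989 tested genes, 21.2% were called and 8.83% were called as lower. The median log2 fold change was -0.23, against -0.0012 over all tested genes, with 5 values below and 3 above 0. The summed level of the 12 oocyte markers was 11222 to 12578 CPM in double mutants, 11189 to 12137 in RNAi mutants and 12556 to 14644 in controls, and its part in the results was not tested.

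*Nlrp9b* was at 616 and 662 CPM in the older and at 757 and 766 CPM in the younger double mutants. In controls it was at 848 and 1152 CPM in the older and at 1058 and 1032 CPM in the younger animals. All double mutants thus lay below all controls (log2 fold change -0.55 ± 0.13 (SE), adjusted p = 0.00745 by edgeR), and the exact two-sided permutation test gave p = 0.0286, the smallest for 4 against 4 samples. It was the only 1 of the 8 genes without overlap, and 10.2% of all tested genes lay lower without overlap. The call held with each sample left out in turn. Without overlap over all samples, the groups could not overlap within the rRNA sets either. There *Nlrp9b* was at 616 and 757 against 848 and 1032 CPM with more rRNA. With less rRNA it was at 662 and 766 against 1058 and 1152 CPM. In fits of 1 set alone it was not called, with -0.42 and an adjusted p of 0.0965 for more rRNA and -0.62 and an adjusted p of 0.0781 for less, nor in the younger animals alone (-0.45, adjusted p = 0.144 by edgeR).

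*Nlrp4b* was at 219 and 330 CPM in the older double mutants, at 263 and 390 CPM in the younger ones and at 363, 515, 423 and 400 CPM in controls (log2 fold change -0.50 ± 0.17, adjusted p = 0.0484 by edgeR). Both older samples and younger replicate 1 lay below all controls, and younger replicate 2 was within their range. The call was lost in 6 of 8 fits with a sample left out, where the log2 fold change ranged from -0.65 to -0.37 over all 8, with only the younger animals (-0.33, adjusted p = 0.374) and with a term for age class (-0.51, adjusted p = 0.0547 by edgeR). Within the rRNA sets there was no overlap, at 219 and 263 against 363 and 400 CPM with more rRNA and at 330 and 390 against 423 and 515 CPM with less.

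*Nlrp9a* and *Nlrp14* came next. *Nlrp9a* was at 396, 543, 484 and 573 CPM in double mutants (log2 fold change -0.42 ± 0.15, adjusted p = 0.0586 by edgeR) and *Nlrp14* at 2506, 3404, 2512 and 3246 CPM against 2977, 4089, 4768 and 3681 CPM in controls (log2 fold change -0.41 ± 0.15, adjusted p = 0.0676 by edgeR). For both genes, the pooled ranges overlapped, and within each rRNA set both double mutants lay below both controls, as they did for 4 of the 8 genes and for 15.1% of all tested genes. *Nlrp9a* was called with DESeq2 (adjusted p = 0.0393) and without the filter on low counts (adjusted p = 0.0357), and *Nlrp14* without the filter (adjusted p = 0.0340). With a term for the rRNA set, a setting chosen after the values had been seen, both were called, each with a log2 fold change of -0.41, and with an adjusted p of 0.00408 for *Nlrp9a* and 0.00509 for *Nlrp14* by edgeR. The same fit gave -0.54 for *Nlrp9b* (adjusted p = 0.00409) and -0.52 for *Nlrp4b* (adjusted p = 0.00373 by edgeR), so that 4 of the 8 genes were called as lower, where 11.2% of all tested genes were in that fit.

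No fall was detected for the other 4 genes. *Nlrp4a* was at 612, 786, 664 and 940 CPM in double mutants (log2 fold change -0.05 ± 0.13, adjusted p = 0.853 by edgeR), with samples below, within and above the control range. *Nlrp4e* was at 226, 299, 220 and 310 CPM (0.09 ± 0.14, adjusted p = 0.727 by edgeR) and *Nlrp4c* at 32.9, 43.2, 41.6 and 32.6 CPM against 28.4, 30.7, 31.0 and 35.7 CPM in controls (0.26 ± 0.14, adjusted p = 0.236 by edgeR). *Nlrp9c* was at 320, 404, 409 and 432 CPM against 284, 383, 419 and 312 CPM (0.16 ± 0.14, adjusted p = 0.469 by edgeR) and a 95% interval from -0.14 to 0.46.

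**Figure D4:**
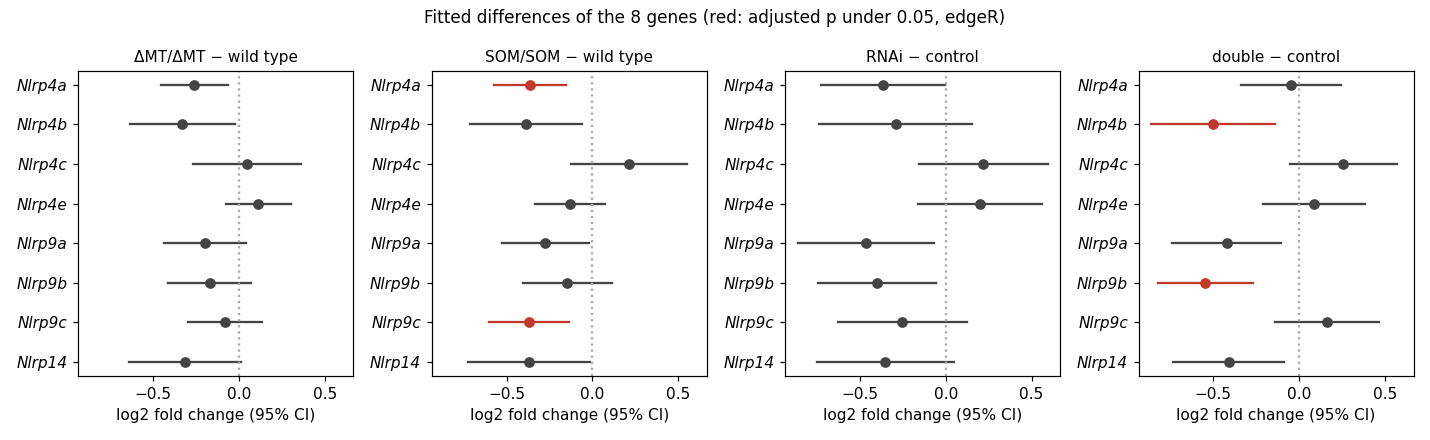
Fitted log2 fold change of each gene (points) with its 95% interval (bars) in 4 comparisons, with red for an adjusted p under 0.05 by edgeR. Red points are *Nlrp4a* and *Nlrp9c* in SOM/SOM (both -0.37) and *Nlrp4b* (-0.50) and *Nlrp9b* (-0.55) in double mutants.

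The ratio of 2 genes within a sample does not depend on the scaling of the library. The ratio of *Nlrp9c* to *Nlrp9b* CPM was 0.52 to 0.611 in double mutants, above the 0.303 to 0.396 of the controls, the 0.352 and 0.415 of RNAi mutants and the 0.333 of the piRNA mutant. In the single-end run it was 0.345 to 0.379 in wild type, 0.373 to 0.414 in *Dicer* ΔMT/ΔMT and 0.267 to 0.364 in SOM/SOM, so double mutants lay above all other 18 samples. The ratio of *Nlrp9c* to *Nlrp9a* was likewise 0.745 to 0.846 in double mutants and 0.503 to 0.634 in all other groups but *Dicer* ΔMT/WT, at 0.479. Among the *Nlrp4* genes, *Nlrp4e* to *Nlrp4b* was 0.795 to 1.03 in double mutants, 0.775 and 0.866 in RNAi mutants and 0.551 to 0.614 in controls. In the single-end run that ratio was 0.505 to 0.584 in wild type, 0.668 to 0.794 in ΔMT/ΔMT and 0.563 to 0.804 in SOM/SOM. It thus overlapped between double mutants and SOM/SOM, and it rests on *Nlrp4e*, whose counts are uncertain. These ratios were chosen after the values had been seen and are given without a test. How many other pairs of genes part double mutants from the other samples was not counted. In double mutants *Nlrp9b* by itself already lay below all controls.

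**Figure D5:**
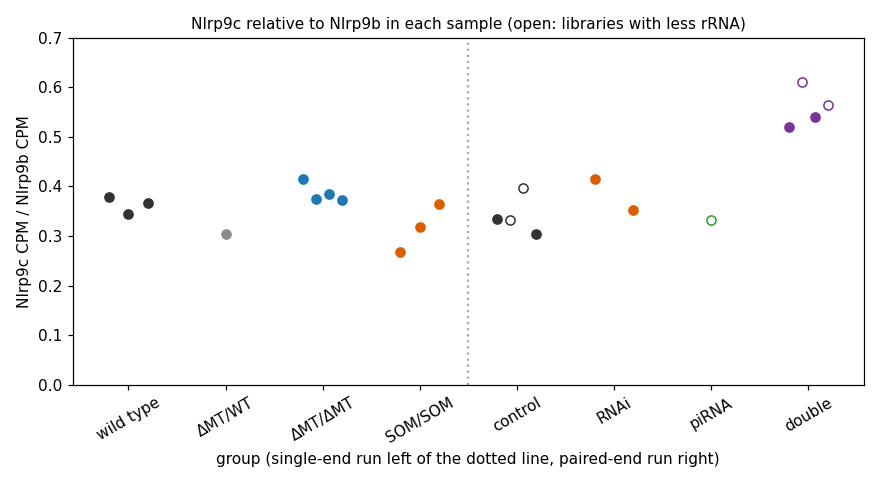
Ratio of *Nlrp9c* to *Nlrp9b* CPM in each sample by group, with the single-end run left and the paired-end run right of the dotted line and open points for libraries with less rRNA. The 4 double mutants lie at 0.52 to 0.611 and the other samples at 0.267 to 0.415.

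Double mutants and RNAi mutants share their *Dicer* genotype and differ in *Mili* DAH, but also in age (40, 35, 11 and 11 against 17 and 13 weeks) and in rRNA (2 of 4 against 0 of 2 libraries with less rRNA), which this comparison does not separate. None of the 8 genes was called, where 0.314% of all 20989 tested genes were, and DESeq2 called none of the 8. An unadjusted p under 0.05 was found for 1004 of all tested genes and for 1 of the 8. That gene was *Nlrp9c*, at 280 and 306 CPM in RNAi mutants and 320 to 432 CPM in double mutants, which all lay higher (log2 fold change 0.42 ± 0.17, 95% interval 0.04 to 0.79, adjusted p = 0.949 by edgeR). *Nlrp4a* was higher in all double mutants as well (0.32 ± 0.17, adjusted p = 0.9997 by edgeR), which makes 2 genes that lay higher without overlap, where 7.33% of all tested genes did. Within the set with more rRNA, the value was 0.34 for *Nlrp9c* (adjusted p = 0.508), 0.11 for *Nlrp4a* (adjusted p = 0.794) and -0.50 for *Nlrp4b* (adjusted p = 0.208 by edgeR).

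The piRNA mutant has no replicate. *Nlrp4a* was at 958 CPM, above all controls, *Nlrp4c* at 27.4 CPM, just below them, and the other 6 genes lay within the control range, at 90.8% to 107% of the control mean. Of all tested genes, 36.1% were outside that range.

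Age did not alter the effect of the double mutation detectably. The difference between the effect in animals of at least 35 weeks and in younger ones was called for none of the 8 genes, with 0.00476% called over all 20989 tested genes. DESeq2 called none of the 8 either. None of the 8 had an unadjusted p under 0.05, while 1242 of all tested genes did. The 95% intervals of this difference were wide, from -1.09 to 0.94 over the 8 genes. For *Nlrp9b* the log2 fold change was -0.65 ± 0.18 in older and -0.46 ± 0.18 in younger animals, and for *Nlrp4b* it was -0.68 ± 0.24 and -0.33 ± 0.24.

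The rRNA content of the libraries moved with several genes within a genotype. In controls, 6 of the 8 genes were higher in both libraries with less rRNA than in both with more, as were 17.3% of all tested genes, and in double mutants 5 were, as were 23.2% of all tested genes. *Nlrp14* averaged 4429 against 3329 CPM in controls and 3325 against 2509 CPM in double mutants, a shift of 0.41 log2 units in each. *Nlrp4c* overlapped between the sets in both genotypes. Its cause was not tested.

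Sample by sample, *Nlrp4b* and *Nlrp14* moved most alike, with a Pearson correlation of 0.861 of log2 CPM over all 22 samples, each run centred on its mean. *Nlrp4b* also ran with *Nlrp9b* (0.813), and *Nlrp9a* with *Nlrp9b* (0.806), whereas *Nlrp9c* and *Nlrp9b* reached 0.258. *Nlrp4c* had values from -0.309 to 0.0658 with the others over both runs, and its sign could differ by run, as with *Nlrp14* (0.492 single-end, -0.354 paired-end) and *Nlrp4b* (0.367 and -0.477). These values share libraries, depth and rRNA content. Of 7810 other genes with at least 10 CPM in each run, those most like the mean of the 8 genes were *Gdi2* (0.926), *Sec23a* (0.916), *Gnb4* (0.913), *Actr3* (0.911) and *Tpd52* (0.910), where the median over these genes was 0.185 and the 99th percentile 0.831.

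The wider NLR and inflammasome genes give the setting. Of 28 such genes, 20 were tested in the single-end and 19 in the paired-end run. The 4 with the highest level were also oocyte genes, *Nlrp5* (1266 to 1816 CPM in the single-end and 1366 to 1817 in the paired-end samples), *Nlrp4f* (348 to 559 and 389 to 673), *Nlrp2* (333 to 517 and 475 to 578) and *Nlrp4g* (98.9 to 177 and 125 to 194), followed by *Naip1* and *Nlrc4*, parts of the inflammasome that senses bacterial flagellin and secretion systems. *Naip1* rose in all 4 comparisons with wild type or control, by a log2 fold change of 1.03 ± 0.12 in *Dicer* ΔMT/ΔMT, 1.42 ± 0.13 in SOM/SOM, 1.44 ± 0.18 in RNAi mutants and 1.83 ± 0.16 in double mutants (adjusted p = 3.36e-04, 2.25e-05, 1.26e-04 and 2.37e-06 by edgeR). In *Dicer* ΔMT/ΔMT, 2 of 20 genes rose (*Naip1* and *Naip5*) and 1 fell (*Nod2*), where 15.4% of all tested genes were called. In SOM/SOM, 4 of 20 rose (with *Nlrp12* and *Nlrp4d*) and 1 fell (*Nod2*), where 28.6% of all tested genes were called. Between both mutants only *Nlrp4d* differed, with higher values in SOM/SOM, where 7.35% of all tested genes were called. In RNAi mutants, 2 of 19 were called, both as higher (*Naip1* and *Nlrp12*). Of all tested genes, 10.7% were called there in either direction and 3.64% as lower. In double mutants 3 of 19 were called, all as higher (with *Nlrc4*). Here 21.2% of all tested genes were called in either direction and 8.83% as lower. *Naip5*, *Nlrp12*, *Nlrp4d* and *Nod2* are named after their values had been seen. None of the 8 oocyte genes was called as higher in the 6 comparisons between genotypes with all samples in, and their fitted log2 fold changes ran from -0.55 (*Nlrp9b* in double mutants against controls) to 0.42 (*Nlrp9c* in double against RNAi mutants).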

How the data were processed

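The authors mapped reads of GV oocyte RNA (pools of 25 oocytes per extraction) with STAR 2.5.3a to mm10 (GRCm38) and counted them with featureCounts on GENCODE M15 exons, ignoring strand, keeping reads that map to several places and giving each place or gene a fraction. The deposited values are expected counts without normalization and were rounded to whole numbers here. Each run was fitted alone with edgeR 4.0.16 (R 4.3.3): TMM, filterByExpr (minimum count 10, total 15), quasi-likelihood F test, Benjamini-Hochberg adjustment over all tested genes at 0.05, prior count 0.125, standard errors from the F statistic. Single samples (*Dicer* ΔMT/WT, piRNA mutant) were not compared by a test and are described by their values. The fits did not include the unreplicated ΔMT/WT library. The main paired-end fit included the piRNA mutant, which adds nothing to the estimate of the spread.

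DESeq2 1.42.0, RLE factors, no filter, only the groups compared, age, the replicate block and each sample left out were tried as alternatives, and the rRNA sets (parted at 1000 CPM of *Gm42418*) were added after the values were seen. In simulated data the fit recovered 189 of 200 genes changed by 1.5 log2 units for *Dicer* SOM/SOM against wild type (19307 genes) and 197 of 200 for double mutants against controls (16686 genes). Every simulated gene had the same dispersion, and smaller changes were not simulated. The simulation therefore does not show how often changes as small as those of the 8 genes would be found. The 8 genes and the gene lists were chosen with earlier results of these data known. Named are the 8 genes, *Dicer1*, the 6 other NLR genes with the highest mean CPM, the 5 genes with the most similar pattern and genes that share 50-base stretches. The single-end labels give no animal, culture or age, and the paired-end labels give an age per sample without naming animals, so p-values measure the spread between samples, which may in part be technical. Samples of a group differed by 12.1 to 98.2 times counting noise. Total counts were 6468380 to 90713013 per sample. Shared stretches and coding identity came from GENCODE transcripts of GRCm38, promoters from RefSeq.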

Additional observations from a re-analysis of the deposited data

How the results depend on the processing

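Over 688 refitted values of single genes, 652 kept their side of the threshold, 18 gained a call, 18 lost one and none that was called changed its sign. In *Dicer* ΔMT/ΔMT against wild type the count of calls went from 0 to 1 with DESeq2 and to 3 with only the groups compared. The share called of all tested genes was 15.4% in the main fit, 19% with DESeq2 and 23.9% with only the groups compared. For *Dicer* SOM/SOM against wild type the count of calls went from 2 to 1 with only the groups compared and to 3 with DESeq2. With a sample left out it ranged from 1 to 4, and against *Dicer* ΔMT/ΔMT from 0 to 1. The share of all tested genes against wild type was 28.6% in the main fit, 21.7% with only the groups compared and 31.1% with DESeq2. With a sample left out that share was 20.6% to 26.6%, and against *Dicer* ΔMT/ΔMT 3.92% to 7.53%. For double mutants against controls the count of calls went from 2 to 4 without the filter, to 3 with DESeq2 and to 1 with the age term. It went to 0 in younger animals and to 1 with only the groups compared, and ranged from 1 to 4 with a sample left out. The share of all tested genes was 21.2% in the main fit, 12.5% without the filter, 24.3% with DESeq2 and 21.2% with the age term. In younger animals that share was 9.8%, with only the groups compared 21.1% and with a sample left out 17.8% to 21.1%. With the rRNA term, added after the values were seen, the count was 4, in libraries with more rRNA 1 and in those with less 0. The shares of all tested genes in these fits were 25%, 16.6% and 7.93%. No fit in libraries with less rRNA could be made for RNAi mutants, which are all in the other set. RNAi mutants against controls and double against RNAi mutants gave 0 in all settings run, and the age difference gave 0 in its 3 alternatives. The cause of the changed counts was not tested. Leaving out a sample moved the number of genes without overlap to between 2 and 4 for *Dicer* ΔMT/ΔMT and between 4 and 6 for SOM/SOM against wild type, 2 and 4 between both mutants, 3 and 6 for RNAi mutants against controls, 1 and 4 for double mutants against controls and 2 and 3 for double against RNAi mutants. With fewer samples the share of all tested genes without overlap also rises, to 36.9% to 43.6%, 46.9% to 52.5%, 24.1% to 33.7%, 40.4% to 45.0%, 26.2% to 29.7% and 19.0% to 23.6% in the same order.

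With the replicate block, 2 genes were called for SOM/SOM against wild type, 3 for double mutants against controls (*Nlrp9a* added, adjusted p = 0.0238) and 0 in the other comparisons. Deviations of same-numbered samples correlated at -0.02 to 0.09 in the single-end run, where different-numbered samples gave -0.12 to 0.12. Between double mutants and controls, same-numbered samples gave 0.07 to 0.26 and different-numbered ones -0.30 to 0.18. With RNAi mutants they gave -0.15 to -0.11 and -0.12 to 0.15. These values do not settle whether the numbers mark pairs, and the main fits did not take them as pairs. Groups of 2 to 4 samples and the division of shared reads limit what can be seen, most of all for *Nlrp4e*. By shared stretches, *Nlrp4c* came next in the single-end run and *Nlrp9b* in the paired-end run.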
